A study of Mus musculus with 4 samples.

Results

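The genes examined here are the ligands and receptors of axon guidance: the semaphorins with their plexin and neuropilin receptors, the ephrins with the Eph receptors, the Slit ligands with the Robo receptors, and the netrins with Dcc and the Unc5 receptors. They were chosen by gene symbol among the protein-coding genes of the deposited table, which gave 69 of 29224 genes (17887 of them protein-coding). The set holds 35 ligand and 34 receptor genes in 6 families, namely 20 semaphorins, 11 plexins and neuropilins, 8 ephrins, 14 Eph receptors, 7 Slit and Robo genes, and 9 genes of the netrin group. The rule itself uses symbols and no measured value, although it was set with earlier results of these data known.

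RNA was sequenced from cells of the cerebral cortex of P5 mice after magnetic bead sorting with the anti-GLAST (ACSA-1) antibody, which binds a glutamate transporter of the astrocyte surface. The Ezh2 f/f group (2 libraries) carried floxed Ezh2 alleles. The Ezh2 cKO group (2 libraries) carried the same floxed alleles together with Cre driven by Aldh1l1, an astrocyte gene, so that deletion was directed to astrocytes and not to every cell of the cortex. Nothing in the sources used here says whether a library came from 1 animal or several, or whether the libraries of a group came from separate animals, so p-values measure only the spread between these libraries. EZH2 is the catalytic subunit of Polycomb repressive complex PRC2, which places the repressive histone mark H3K27me3. The comparison of Ezh2 cKO with Ezh2 f/f asks which guidance genes differed in RNA level when Ezh2 was deleted.

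Guidance cues are read by receptors on a moving cell process, which turns towards or away from the source, and growing axons, migrating neurons, blood vessels and glia use them. Secreted class 3 semaphorins mostly signal through a neuropilin joined to a plexin, whereas the other semaphorins are membrane-bound and bind plexins directly. Ephrins and Eph receptors both sit in membranes and act at cell contacts, Slit proteins repel through Robo receptors, and netrins attract through Dcc and repel through Unc5 receptors.

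Total counts ranged from 16273308 to 17522152 per library, at which 3 counts correspond to 0.170 to 0.191 CPM (counts scaled to library size, here after TMM normalisation). Ezh2 itself had 434 and 327 counts in the floxed controls against 211 and 164 counts with Cre, a fall of 2.16-fold (edgeR adjusted p = 3.26e-05). Its groups did not overlap, nor did those of 84.3% of all genes tested. Neuronal transcripts were abundant in all 4 libraries. Tubb3, a neuronal tubulin, stood at 1859 and 1897 FPKM (counts scaled to library size and gene length, so that genes can be compared) in the 2 control libraries and at 1223 and 1207 FPKM in Ezh2 cKO, whereas Slc1a3, the gene of GLAST itself, stood at 11.1, 11.6, 36.1 and 36.5 FPKM. Astrocyte markers (14 genes) summed to 471 to 501 FPKM in Ezh2 f/f and to 1391 to 1599 FPKM in Ezh2 cKO, with 12 of them higher and 0 lower. Apoe made up most of this sum (278 and 308 against 905 and 765 FPKM), and Aldh1l1 and Sox9 were not called. Newborn neuron markers (10 genes) summed to 3385 to 3404 FPKM against 1700 to 1758 FPKM, with 8 lower and 0 higher. Most of that sum was Tubb2b (2473 and 2372 against 909 and 942 FPKM), and Stmn1 and Neurod1 were not called. The oligodendrocyte lineage list rose in 10 of 10 genes (63.1 to 65.4 against 249 to 285 FPKM), the microglia list in 10 of 10 (59.5 to 60.01 against 147 to 168 FPKM), and the mural list in 5 of 10, with 1 lower (71.4 to 77.4 against 118 to 133 FPKM). Endothelial markers lay at 116 to 122 against 119 to 137 FPKM (3 higher, 1 lower of 10), and progenitor and cycling markers at 57.4 to 64.0 against 42.7 to 43.7 FPKM (1 higher, 8 lower of 10). Neuron markers summed to 2398 to 2461 against 2258 FPKM in both Ezh2 cKO libraries (9 higher, 3 lower of 14). Tubb3, which was lower, made up most of the neuron sum, so the sum hides the rise of most other markers of that list. Beside these marker counts, 34.7% of all genes were higher and 33.6% lower. No marker of these lists was at 0 in every library of a group. In bulk RNA, fewer cells of a type and less RNA per cell cannot be told apart. The part of these shifts in the Ezh2 value and in the values below was not tested.

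Of the 69 guidance genes 68 passed the filter on low counts. Epha1 was the exception, with 4, 11, 6 and 9 counts. At an adjusted p under 0.05 (edgeR quasi-likelihood test, Benjamini-Hochberg adjustment over 16793 genes) 20 members were higher and 28 were lower in Ezh2 cKO, together 70.6% of those tested. The same threshold called 68.4% of all genes (34.7% higher and 33.6% lower) and 70.2% of protein-coding genes (36.1% higher and 34.0% lower), so the share of called members lay near the background. With at least a 2-fold change, 9 members were higher and 14 lower, or 33.8%, beside 33.0% of all genes (19.0% higher and 14.0% lower) and 31.0% of protein-coding genes (18.5% higher and 12.5% lower). The libraries of the 2 groups did not overlap in 24 members that were higher and 29 that were lower, and in 84.3% of all genes and 85.1% of protein-coding genes tested. The median log2 fold change (Ezh2 cKO over Ezh2 f/f) was -0.05 over the members and 0.02 over all genes tested. Among the ligands 9 were higher and 15 lower of 35, and among the receptors 11 and 13 of 33 tested. With 2 libraries per group, an exact permutation test on a single value cannot go below p = 0.333, so the p-values given come from the fit across all genes.

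**Figure D1:**
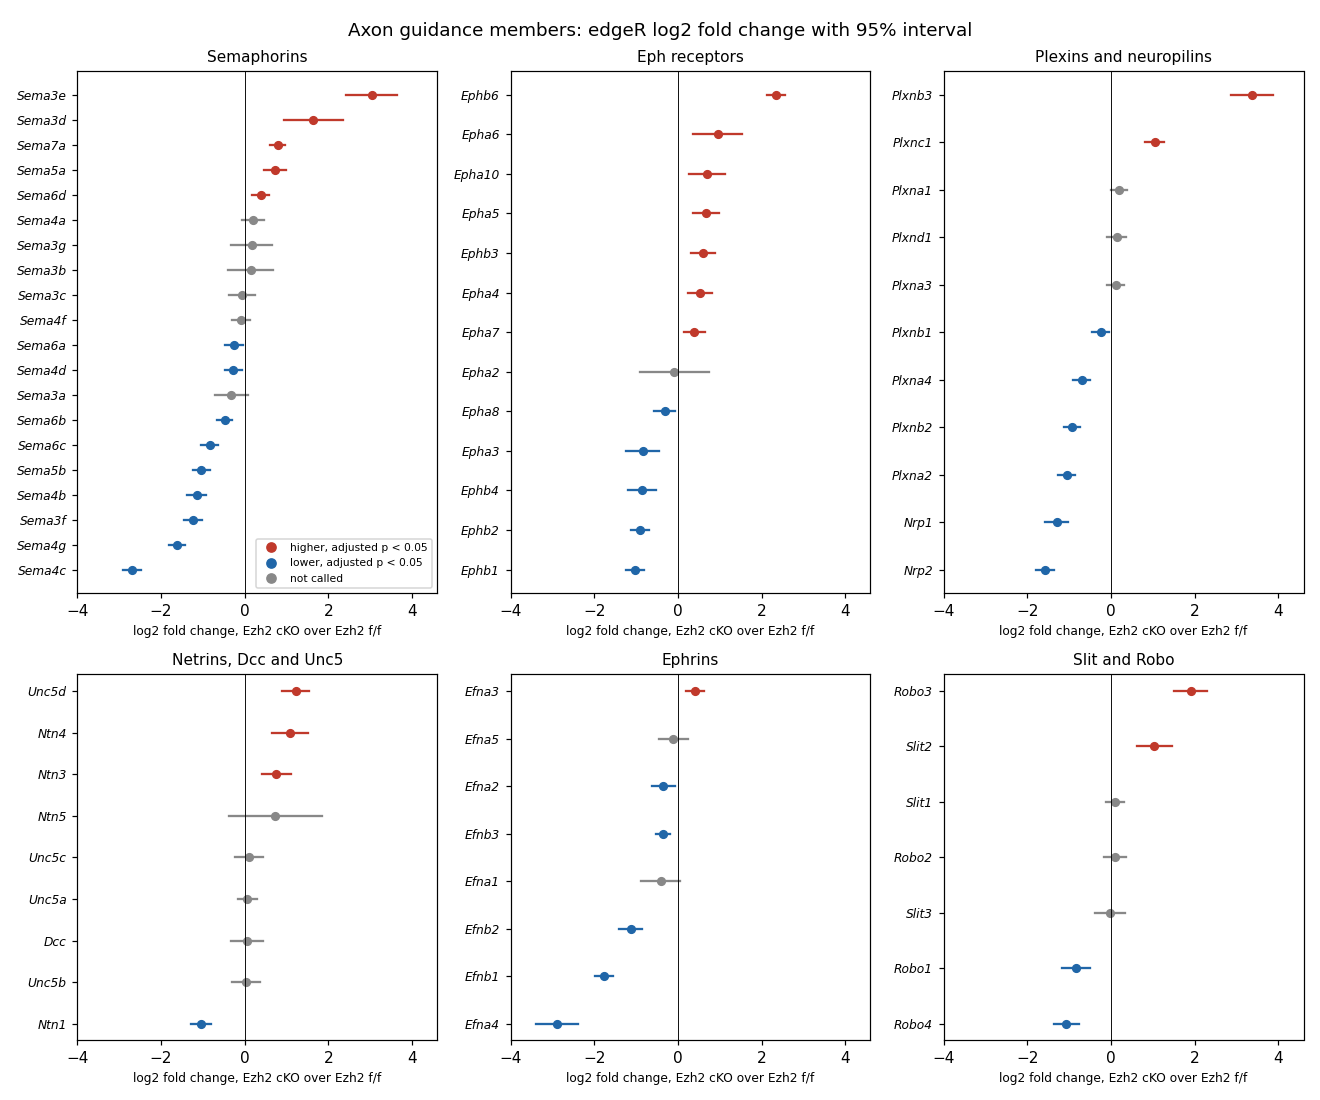
Log2 fold change (horizontal axis, Ezh2 cKO over Ezh2 f/f) of the 68 tested members in 6 family panels, with points for edgeR estimates, bars for 95% intervals, red for higher, blue for lower and grey for not called. Estimates run from -2.89 for Efna4 to 3.37 for Plxnb3, and 5 of 8 ephrins lie on the lower side as called genes while 7 of 13 Eph receptors lie on the higher side. Among all genes tested 33.6% were called lower and 34.7% higher.

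The promoter sequences of the 3 called members with the largest rises and the 3 with the largest falls, among members with a single start in RefSeq, are shown because PRC2 is known to act at promoters rich in CG dinucleotides and these genes mark both ends of the range. Each runs from 250 bases before to 50 after the start, 5′ to 3′ on the gene's strand (RefSeq, GRCm38.p6), with every CG in capitals. The first 3 belong to genes that were higher in Ezh2 cKO: Plxnb3 (chrX:73756853-73757152, plus strand), Sema3e (chr5:14025026-14025325, plus strand) and Ephb6 (chr6:41605261-41605560, plus strand). The last 3 belong to genes that were lower: Efna4 (chr3:89337979-89338278, minus strand), Efnb1 (chrX:99135811-99136110, plus strand) and Sema4g (chr19:44989094-44989393, plus strand).
Plxnb3: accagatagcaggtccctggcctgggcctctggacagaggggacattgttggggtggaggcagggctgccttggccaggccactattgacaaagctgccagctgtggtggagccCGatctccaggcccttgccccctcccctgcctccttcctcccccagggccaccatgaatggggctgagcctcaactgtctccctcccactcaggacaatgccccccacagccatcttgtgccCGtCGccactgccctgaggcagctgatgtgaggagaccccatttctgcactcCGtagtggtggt
Sema3e: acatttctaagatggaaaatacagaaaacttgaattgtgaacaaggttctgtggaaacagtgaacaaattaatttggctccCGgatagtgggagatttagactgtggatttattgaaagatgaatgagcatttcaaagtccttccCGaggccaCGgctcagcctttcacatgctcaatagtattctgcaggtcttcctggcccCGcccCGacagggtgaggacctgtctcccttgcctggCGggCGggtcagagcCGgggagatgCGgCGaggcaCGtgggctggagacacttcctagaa
Ephb6: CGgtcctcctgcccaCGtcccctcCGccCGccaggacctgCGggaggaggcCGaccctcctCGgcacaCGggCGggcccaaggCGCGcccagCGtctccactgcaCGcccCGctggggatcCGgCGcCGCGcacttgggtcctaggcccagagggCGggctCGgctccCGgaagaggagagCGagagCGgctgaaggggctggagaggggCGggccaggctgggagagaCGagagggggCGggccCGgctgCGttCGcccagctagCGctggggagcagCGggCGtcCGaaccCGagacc
Efna4: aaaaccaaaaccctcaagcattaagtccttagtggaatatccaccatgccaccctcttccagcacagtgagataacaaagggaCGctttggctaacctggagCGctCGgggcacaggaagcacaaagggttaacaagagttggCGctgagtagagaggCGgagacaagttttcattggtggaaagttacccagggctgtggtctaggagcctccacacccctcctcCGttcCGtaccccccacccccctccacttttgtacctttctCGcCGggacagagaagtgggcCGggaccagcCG
Efnb1: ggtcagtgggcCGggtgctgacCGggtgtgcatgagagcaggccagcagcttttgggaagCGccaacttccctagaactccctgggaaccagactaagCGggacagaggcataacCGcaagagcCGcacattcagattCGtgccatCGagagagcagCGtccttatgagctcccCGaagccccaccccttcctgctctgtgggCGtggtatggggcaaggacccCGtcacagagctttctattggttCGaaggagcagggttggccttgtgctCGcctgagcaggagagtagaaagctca
Sema4g: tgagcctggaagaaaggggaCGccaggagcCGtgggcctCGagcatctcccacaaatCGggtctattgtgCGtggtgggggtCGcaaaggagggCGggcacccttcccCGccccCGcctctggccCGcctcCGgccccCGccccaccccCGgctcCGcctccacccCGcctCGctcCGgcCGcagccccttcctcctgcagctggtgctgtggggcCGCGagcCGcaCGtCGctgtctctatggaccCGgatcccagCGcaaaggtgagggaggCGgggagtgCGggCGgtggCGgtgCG

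CG dinucleotides differed widely within each trio: 4, 11 and 34 for Plxnb3, Sema3e and Ephb6, and 11, 14 and 30 for Efna4, Efnb1 and Sema4g. RefSeq promoters were found for 59 of the 69 members, 75 in all when every start is counted. Over these 75 the median was 19 CG per 300 bases, against 7 over all 32851 RefSeq mouse promoters and 13 over those of protein-coding genes, all starts counted likewise. At least 20 CG were present in 49.3% of the 75, in 26.5% of all promoters and in 35.9% of protein-coding promoters. In the 47 members with 1 start the median was 23, and within them the medians lay close together, at 22 for the 16 that were higher, 24 for the 17 that were lower and 23 for the 13 not called. The letters TATAAA (either strand) occurred in 2 of the 75 and in 13.6% of all promoters. No H3K27me3 values are part of the data analysed here, and these counts are a description of sequence only.

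**Figure D2:**
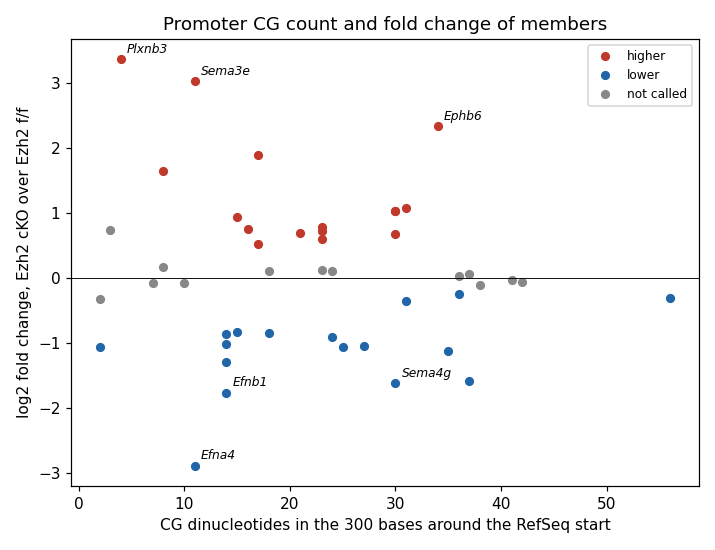
Number of CG dinucleotides in the 300 bases around the RefSeq start (horizontal axis) against log2 fold change, Ezh2 cKO over Ezh2 f/f (vertical axis), for tested members with 1 start; red points were higher, blue lower and grey not called. The CG counts of higher (4 to 34), lower (2 to 56) and uncalled members (2 to 42) overlap widely, with medians of 22, 24 and 23.

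Semaphorins changed in both directions, and the summed level of the family was lower in both Ezh2 cKO libraries. Of the 20 genes 5 were higher, 9 lower and 6 not called. The share called, 70%, lay near the 68.4% of all genes. The summed FPKM went from 317 and 318 in Ezh2 f/f to 240 and 233 in Ezh2 cKO. The class 4 semaphorins, which span the membrane, went from 135.4 ± 0.4 to 60.8 ± 1.4 FPKM (mean ± SD, n = 2 libraries). Of these 6 genes 4 were lower and 0 higher, beside 33.6% and 34.7% of all genes. Sema4c, a ligand of plexin-B2, was at 210 and 203 CPM in Ezh2 f/f and at 33.7 and 30.4 CPM in Ezh2 cKO. It was 6.43-fold lower (log2 fold change -2.68 ± 0.10, SE, adjusted p = 1.18e-10). Sema4g, which also binds plexin-B2, was at 470 and 461 CPM against 147 and 155 CPM, a 3.08-fold lower level (adjusted p = 1.69e-09). In both genes the 2 groups lay far apart relative to their libraries. Sema4b was lower too (50.9 and 56.5 against 24.6 and 24.0 CPM, log2 fold change -1.14 ± 0.11), and Sema4d, the best known plexin-B1 ligand, by less (-0.27 ± 0.09, adjusted p = 0.0178). The call of Sema4d was lost without Ezh2 f/f replicate 2 (adjusted p = 0.061) and without Ezh2 cKO replicate 2 (adjusted p = 0.121). Sema4a and Sema4f did not pass the test (log2 fold changes 0.21 and -0.08).

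Class 6 semaphorins, ligands of class A plexins, were lower in 3 of 4 genes, beside 33.6% of all genes. With at least a 2-fold change 0 were lower. Sema6b, the most abundant semaphorin in Ezh2 f/f, was at 265 and 270 CPM against 197 and 185 CPM (log2 fold change -0.48 ± 0.09, adjusted p = 0.000186), and Sema6c at 198 and 210 against 120 and 108 CPM (-0.84 ± 0.09). Sema6a was lower by little (-0.26 ± 0.10, adjusted p = 0.0284), and its call was lost without Ezh2 f/f replicate 2 and without either Ezh2 cKO library (adjusted p = 0.15, 0.0542 and 0.17). Sema6d rose from 43.3 and 44.7 to 56.4 and 58.4 CPM. The class 5 genes, which carry thrombospondin repeats, parted: Sema5a rose from 19.3 and 23.0 to 33.1 and 36.8 CPM (log2 fold change 0.73 ± 0.13), and Sema5b fell from 94.0 and 90.9 to 46.1 and 43.8 CPM (-1.04 ± 0.09).

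Sema7a, which is held in the membrane by a lipid anchor and binds plexin-C1 and integrins, rose from 136 and 133 CPM to 238 and 224 CPM (log2 fold change 0.79 ± 0.09, adjusted p = 2.38e-06). On the FPKM scale it was number 4 of the 20 semaphorins in Ezh2 f/f (39.5 ± 0.9) and number 1 in Ezh2 cKO (72.1 ± 2.0), above Sema6b at 49.5 ± 1.5. Its share of the summed semaphorin FPKM went from 12.7% and 12.2% to 30.6% and 30.4%. Sema4c was number 3 in Ezh2 f/f (43.6 FPKM) and number 9 in Ezh2 cKO (7.18 FPKM).

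Among the 7 secreted class 3 semaphorins 2 were higher, 1 lower and 4 not called, so 42.9% were called beside 68.4% of all genes. Sema3e, which signals through plexin-D1 without a neuropilin, was at 1.17 and 0.891 CPM in Ezh2 f/f and at 7.26 and 9.81 CPM in Ezh2 cKO. The counts behind these values were 20, 14, 128 and 170, and the rise was 8.19-fold (log2 fold change 3.03 ± 0.28, adjusted p = 4.14e-07). Sema3d rose from 16 and 16 counts to 47 and 60 counts (3.12-fold, adjusted p = 0.000543). They were the 2 least abundant semaphorins per length in both groups, at 0.947 and 0.367 FPKM in Ezh2 cKO. Sema3f, a neuropilin-2 ligand and the most abundant of the class, fell from 60.1 and 58.5 to 25.3 and 24.8 CPM (2.37-fold lower, adjusted p = 8.86e-08). Sema3a, the classical growth cone collapsing factor, was at 20.5 and 17.5 against 11.97 and 18.4 CPM, and its groups overlapped (adjusted p = 0.132). Its fold change passed the threshold without Ezh2 f/f replicate 2 (adjusted p = 0.0162) and without Ezh2 cKO replicate 2 (adjusted p = 0.0198). Sema3b, Sema3c and Sema3g were not called, with log2 fold changes from -0.07 to 0.17 and overlapping groups.

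**Figure D3:**
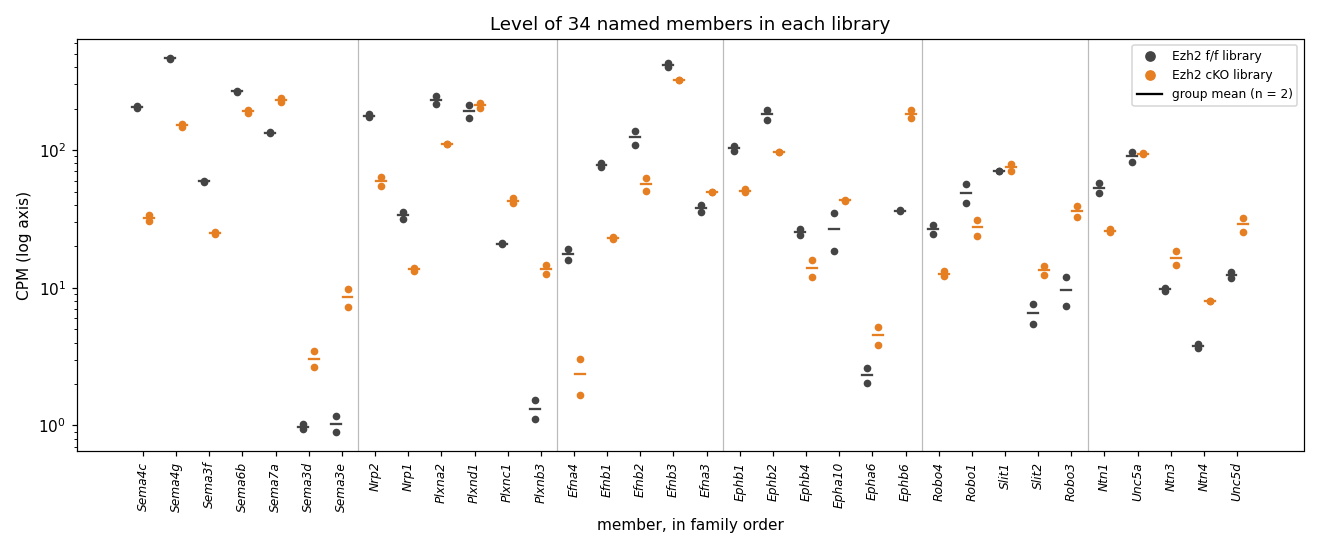
Level of 34 members in each library, in CPM on a log axis, with 1 dark point per Ezh2 f/f library, 1 orange point per Ezh2 cKO library and a short line at each group mean; vertical lines separate the families. Sema4c sits at 203 to 210 CPM in Ezh2 f/f and at 30.4 to 33.7 CPM in Ezh2 cKO, and Ephb6 moves the other way, from 36.0 to 36.5 up to 171 to 196 CPM.

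Both neuropilins were lower, beside 33.6% of all genes. Nrp2 was at 173 and 182 CPM in Ezh2 f/f and at 55.0 and 63.7 CPM in Ezh2 cKO, a 2.99-fold lower level (log2 fold change -1.58 ± 0.10, adjusted p = 1.05e-08). Nrp1, which is also a VEGF co-receptor of endothelium, was at 35.5 and 31.8 against 14.0 and 13.3 CPM, 2.46-fold lower (adjusted p = 7.23e-07). The 2 genes together summed to 17.8 and 17.97 FPKM in Ezh2 f/f and to 6.18 and 7.01 FPKM in Ezh2 cKO.

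Of the 9 plexins 2 were higher, 4 lower and 3 not called, so 66.7% were called beside 68.4% of all genes. Plxnb3, a receptor for Sema5a, had the largest rise of all members, from 1.11 and 1.53 CPM (19 and 24 counts) to 14.7 and 12.6 CPM (260 and 218 counts), 10.4-fold (log2 fold change 3.37 ± 0.23, adjusted p = 2.35e-08). Plxnb3 is known for expression in the oligodendrocyte lineage, and the marker genes of that lineage were higher in 10 of 10 cases in the same libraries (summed 63.1 and 65.4 against 285 and 249 FPKM), with their part in this value not tested. Plxnc1, the Sema7a receptor, rose from 21.02 and 20.7 to 41.2 and 44.7 CPM (2.05-fold, adjusted p = 1.5e-06). Plxna2 fell from 249 and 215 to 112 and 110 CPM (2.09-fold lower, adjusted p = 2.86e-07) and Plxnb2 from 183 and 182 to 100 and 91.7 CPM (log2 fold change -0.93 ± 0.09). Plxna4 also fell (215 and 184 against 119 and 125 CPM), and Plxnb1 by little (-0.25 ± 0.09, adjusted p = 0.0249), a call lost without Ezh2 f/f replicate 2 (adjusted p = 0.0528) and without Ezh2 cKO replicate 2 (adjusted p = 0.142). Plxnd1, a receptor best known in endothelium and the most abundant plexin per length in both groups, overlapped between them, with 214 and 172 against 219 and 204 CPM (adjusted p = 0.288). It passed the test when Ezh2 f/f replicate 1 was left out (log2 fold change 0.31, adjusted p = 0.01) and turned to -0.02 when Ezh2 f/f replicate 2 was. Plxna1 and Plxna3 were not called, although their groups did not overlap (0.20 ± 0.09 with adjusted p = 0.0602, and 0.11 ± 0.09). The call on Plxna1 turned on the setting, with adjusted p = 0.0248 under a filter of 50 counts on average and 0.0235 without Ezh2 f/f replicate 2.

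Ephrins were mostly lower: 5 of 8 fell and 1 rose, beside 33.6% lower and 34.7% higher among all genes. The summed FPKM of the family went from 214 and 220 in Ezh2 f/f to 163 and 165 in Ezh2 cKO. Efna4, a lipid-anchored ephrin, had the largest fall of all members, from 19.2 and 16.04 CPM (328 and 252 counts) to 3.06 and 1.67 CPM (54 and 29 counts), 7.41-fold lower (log2 fold change -2.89 ± 0.24, adjusted p = 1.15e-07). All 3 of the transmembrane B ephrins fell. Efnb1 fell from 75.5 and 80.0 to 22.5 and 23.2 CPM (3.40-fold lower, adjusted p = 2.67e-09). Efnb2, which marks arterial endothelium and neural progenitors among other cells, fell from 138 and 109 to 50.8 and 62.6 CPM (2.18-fold lower). Efnb3 was at 402 and 431 against 325 and 326 CPM (log2 fold change -0.36 ± 0.08, adjusted p = 0.00153). It was the most abundant ephrin per length in both groups, at 127 ± 5 and 105 ± 2 FPKM, and its share of the summed ephrin FPKM was 57.6% and 59.5% against 63.8% and 64.3%. Efna3 rose from 39.7 and 35.6 to 49.5 and 49.9 CPM (0.40 ± 0.10, adjusted p = 0.00289) and moved from rank 5 to rank 2 in the family's FPKM order. Efna2 was lower at -0.35 ± 0.13, a call lost without Ezh2 f/f replicate 2 (log2 fold change -0.20) or Ezh2 cKO replicate 2 (-0.24). Efna1 and Efna5 were not called (adjusted p = 0.112 and 0.583), and Efna1 passed without Ezh2 f/f replicate 1 (log2 fold change -0.57, adjusted p = 0.0345).

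Eph receptors, which are receptor tyrosine kinases, were called in 12 of the 13 tested genes (92.3%, beside 68.4% of all genes), 7 higher and 5 lower. Most of these changes were small. With at least a 2-fold change 2 were called, or 15.4%, beside 33.0% of all genes. Ephb6, whose kinase domain is inactive, was at 36.0 and 36.5 CPM in Ezh2 f/f and at 196 and 171 CPM in Ezh2 cKO. The rise was 5.06-fold (log2 fold change 2.34 ± 0.10, adjusted p = 4.24e-10), and the groups lay far apart. Per length it had rank 4 of the family in Ezh2 f/f (9.33 ± 0.03 FPKM) and rank 1 in Ezh2 cKO (50.02 ± 4.1 FPKM), and its share of the summed Eph receptor FPKM went from 12.5% and 11.7% to 47.0% and 42.0%. The summed FPKM of the family went from 74.6 and 80.2 to 113 and 112. Ephb1 and Ephb2, the most abundant Eph receptors per length in Ezh2 f/f, moved the other way, as did Ephb4. Ephb1 fell from 98.9 and 107 to 49.6 and 52.0 CPM (2.03-fold lower, adjusted p = 5.08e-07), Ephb2 from 167 and 197 to 97.2 and 97.0 CPM (log2 fold change -0.90 ± 0.10), and Ephb4, known from veins, from 26.7 and 24.0 to 15.9 and 12.01 CPM (-0.86 ± 0.15). Ephb3 rose from 22.2 and 26.8 to 41.0 and 33.1 CPM, which missed the threshold without Ezh2 cKO replicate 1 (adjusted p = 0.0567).

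In the A class 5 of the 8 tested receptors were higher and 2 lower, beside 34.7% and 33.6% of all genes. Their log2 fold changes lay between -0.85 and 0.95. Epha10, also with an inactive kinase domain, was at 18.4 and 35.1 against 43.3 and 42.9 CPM (log2 fold change 0.69 ± 0.20, adjusted p = 0.00708). The Ezh2 f/f libraries of Epha10 differed more from each other than the second of them did from Ezh2 cKO, and the value was 0.30 without Ezh2 f/f replicate 1 and 1.22 without replicate 2. Epha10 was not called by the DESeq2 Wald test (adjusted p = 0.186) or without Ezh2 cKO replicate 1 (0.104). Epha6 rose from 2.63 and 2.04 to 3.86 and 5.19 CPM (0.95 ± 0.27, adjusted p = 0.00683). Epha4, a receptor that binds ephrins of both classes, was at 58.0 and 52.6 against 66.8 and 92.9 CPM, Epha5 at 52.5 and 36.6 against 63.6 and 78.7 CPM, and Epha7 at 36.2 and 34.3 against 41.6 and 51.3 CPM. In each of the 3 the second Ezh2 cKO library was the higher one. Without Ezh2 cKO replicate 2 the calls of Epha4 (log2 fold change 0.27), Epha5 (0.51), Epha6 (0.72), Epha7 (0.24) and Epha10 (0.70) were lost, and the family count was 6 of 13, with 2 higher and 4 lower. Without Ezh2 f/f replicate 2 Epha5 kept its call at 0.44. Epha3 fell from 18.6 and 14.1 to 8.22 and 9.99 CPM. Epha8 was lower at -0.31 ± 0.12 (adjusted p = 0.0269), a value of -0.12 without Ezh2 f/f replicate 2 and -0.48 without replicate 1, and its call was also lost when either Ezh2 cKO library was left out. Epha2 was not called, with 52, 21, 45 and 28 counts.

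**Figure D4:**
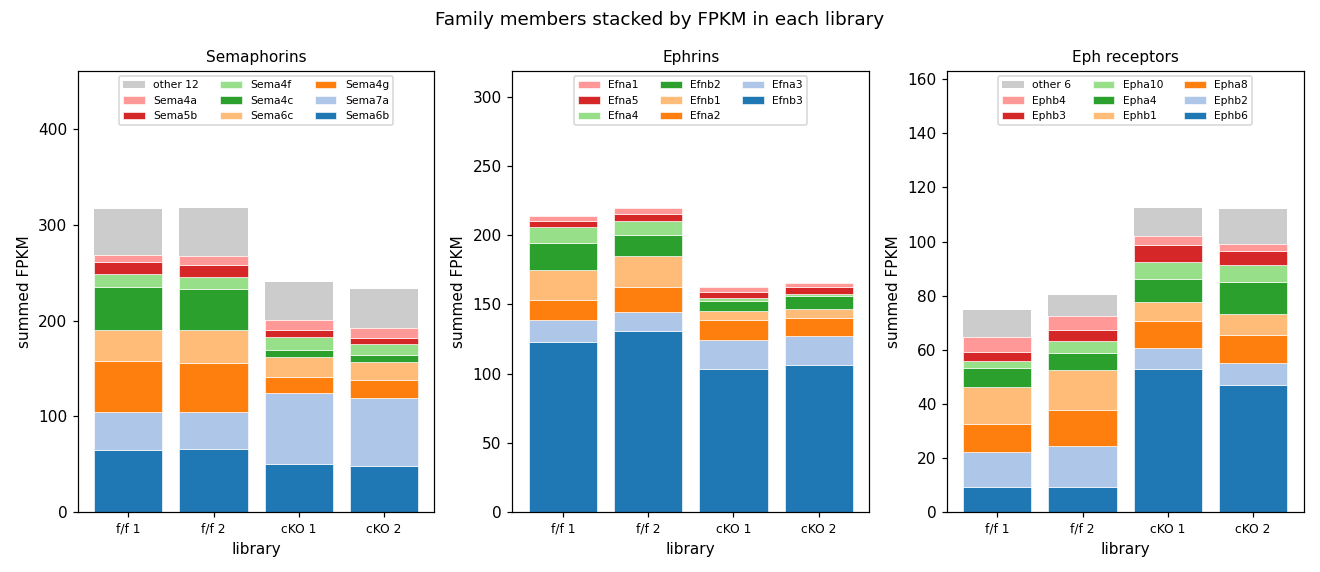
Summed FPKM of the semaphorins, ephrins and Eph receptors in each of the 4 libraries (vertical axis, from 0), stacked by gene, with genes outside the 8 most abundant of a family in grey. In Ezh2 cKO Sema7a replaces Sema6b as the tallest semaphorin layer, Efnb3 stays the tallest ephrin layer, and Ephb6 grows to 47.0% and 42.0% of the Eph receptor sum.

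Slit and Robo genes were called in 4 of 7 cases (57.1%, beside 68.4% of all genes), 2 higher and 2 lower. Slit1, the most abundant of them per length in both groups (11.5 and 13.0 FPKM), was at 70.3 and 70.2 against 79.6 and 70.6 CPM and was not called (log2 fold change 0.10, 95% interval -0.11 to 0.31). Slit2 rose from 7.61 and 5.47 to 12.4 and 14.5 CPM (2.05-fold, adjusted p = 0.000266), and Slit3 was not called. Among the receptors, Robo3, known for the crossing of commissural axons, rose from 7.38 and 12.03 to 39.4 and 32.8 CPM (3.74-fold, adjusted p = 6.78e-07). Robo4, known from endothelium, fell from 28.7 and 24.4 to 13.2 and 12.2 CPM (2.09-fold lower, adjusted p = 1.23e-05). The endothelial marker list summed to 116 to 122 FPKM in Ezh2 f/f and 119 to 137 FPKM in Ezh2 cKO, mostly from Cldn5. Of its genes 3 were higher, 1 lower and 6 not called, and the part of endothelial cells in the Robo4 value was not tested. Robo1, a main receptor of Slit2 on axons, fell from 56.9 and 41.0 to 23.9 and 31.2 CPM (-0.83 ± 0.15). Robo2 overlapped between the groups (88.7 and 86.5 against 79.7 and 107 CPM), and it passed the test when Ezh2 cKO replicate 1 was left out (0.29, adjusted p = 0.0489) but not when Ezh2 cKO replicate 2 was (-0.14).

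In the netrin group 3 genes were higher, 1 lower and 5 not called, so 44.4% were called beside 68.4% of all genes. Ntn1, the secreted founding netrin, fell from 49.2 and 57.5 to 25.3 and 26.6 CPM (2.05-fold lower, adjusted p = 1.49e-06). Ntn4, a netrin that binds laminin in basement membranes, rose from 3.92 and 3.63 to 8.05 and 7.97 CPM (2.12-fold, adjusted p = 0.000312). Ntn3 was at 9.95 and 9.55 against 18.4 and 14.6 CPM (0.76 ± 0.16), but 1715 bases of the gene overlap Tbc1d24 on the same strand, which had a mean of 1151 counts beside the 224 of Ntn3, so the reads of Ntn3 are uncertain. Unc5d, a repulsive netrin receptor, rose from 13.1 and 11.7 to 25.6 and 32.4 CPM (2.33-fold, adjusted p = 6e-06). Unc5a, which held 52.7% to 57.6% of the summed FPKM of the group, overlapped between the groups (97.3 and 82.5 against 93.4 and 94.7 CPM, log2 fold change 0.06, 95% interval -0.15 to 0.28). Dcc, the attractive netrin receptor, was at 13.8 and 15.3 against 12.5 and 17.7 CPM (0.05, interval -0.32 to 0.43). Unc5b and Unc5c overlapped likewise (0.03 and 0.10). Ntn5 had only 8, 6, 14 and 11 counts and shares 10381 bases with the gene Sec1 on the opposite strand, and a difference was not detectable at this depth.

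Ligands and receptors that are known to bind each other were set side by side in 12 pairs chosen from general knowledge of the families, with earlier results of these data known. Both partners were lower in 5 pairs and both higher in 2, in 1 pair they were called in opposite directions, and in 4 only 1 partner was called. As 68.4% of all genes were called, 34.7% higher and 33.6% lower, these counts are a description of the pairs only. Both were higher for Sema7a with Plxnc1 (log2 fold changes 0.79 and 1.04) and for Sema5a with Plxnb3 (0.73 and 3.37). Both were lower for Sema4c with Plxnb2 (-2.68 and -0.93), for Sema3f with Nrp2 (-1.24 and -1.58), for Efnb2 with Ephb4 (-1.13 and -0.86), for Sema6a with Plxna2 (-0.26 and -1.06) and for Sema4d with Plxnb1 (-0.27 and -0.25). Of these, the calls of Sema6a, Sema4d and Plxnb1 were lost when single libraries were left out. Slit2 and Robo1 had opposite signs (1.04 and -0.83). Sema3e rose beside an uncalled Plxnd1 (3.03 and 0.13), Sema6d beside an uncalled Plxna1 (0.38 and 0.20), Ntn1 fell beside an uncalled Dcc (-1.04 and 0.05), and Nrp1 fell beside an uncalled Sema3a (-1.30 and -0.32). RNA levels of both partners were taken from the same mixed libraries, and the data do not say which cells carried which partner.

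Several members are close neighbours in the genome by the positions in the deposited table. Robo4 and Robo3 on chromosome 9 lie on opposite strands with 553 bases between them, and they were called in opposite directions (log2 fold changes -1.07 and 1.90). Efna1, Efna3 and Efna4 lie in a row on chromosome 3, separated by 32.8 and 10.4 kb, and had values of -0.41 (not called), 0.40 and -2.89. Sema3b and Sema3f on chromosome 9 are 72.3 kb apart, with values of 0.14 (not called) and -1.24. Ephb2 and Epha8 on chromosome 4 are 93.4 kb apart and were both lower (-0.90 and -0.31). Sema3a lies between Sema3d and Sema3e on chromosome 5, 536.5 and 422.8 kb away, and was not called while both of its neighbours were higher.

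The intracellular effectors, co-receptors and adhesion partners of these pathways were taken as a list of 52 genes, all of which were tested. Of these 16 were higher, 24 lower and 12 not called, with a median log2 fold change of -0.14, beside 34.7% higher and 33.6% lower among all genes tested, where the median was 0.02. The largest rises were in Met, the HGF receptor that partners with plexin-B1 (8.84 and 7.70 against 32.3 and 37.6 CPM, log2 fold change 2.08), in Ngef, an exchange factor that binds EphA receptors (76.8 and 83.1 against 297 and 300.5 CPM, 1.90), and in Rnd1, a GTPase that binds plexins (43.3 and 44.1 against 126 and 119 CPM, 1.49). The largest falls were in Cntn2, an axonal adhesion protein (411 and 399 against 102 and 99.4 CPM, -2.01), in Draxin, a secreted netrin and Dcc binding cue (77.1 and 76.7 against 20.2 and 22.8 CPM, -1.84), and in Nck2, an adaptor between guidance receptors and actin (83.8 and 65.4 against 29.0 and 30.1 CPM, -1.34). In all 6, which were picked by fold change among called genes, the groups did not overlap, beside 84.3% of all genes tested. Draxin also stands in the newborn neuron list, where 8 of 10 genes were lower, Draxin among them. The part of newborn neurons in its value was not tested.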

How the data were processed

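RNA of bead-sorted P5 cortical cells was sequenced in 4 libraries, 2 of each genotype. The authors deposited read counts per gene without normalisation, and FPKM values, which scale counts to gene length and library size. The submitters' processing notes name Bowtie2 2.2.3, TopHat2 2.0.12, HTSeq 0.6.0 and the build mm9 without roles. The annotation and the use of strand are not given in the sources used here, so genes that overlap another cannot be told apart with certainty. Gene positions differ from GRCm38 (1 of 69 members had the same coordinates in GENCODE M21), the build they belong to is uncertain, and they served only for distances between genes. The authors' own comparison (mean signal, fold change, p-values and calls) was not used, and 0 sample columns were left out.

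Counts were filtered with filterByExpr (16793 genes), normalised by TMM and tested with edgeR 4.0.16 (R 4.3.3; quasi-likelihood test, no term but the group, with a common biological coefficient of variation of 0.0953) with Benjamini-Hochberg adjustment over all genes tested. Levels are CPM on TMM-scaled library sizes, with SDs over 2 libraries. The standard error is the log2 fold change divided by the square root of F. Libraries of a group differed beyond sampling noise (chi-square over degrees of freedom 8.92 and 5.68), and none was merged. On simulated counts of this comparison over 16538 genes, edgeR recovered 92 of 100 genes changed 2-fold and 99 of 100 changed 4-fold, with 5 false calls. DESeq2 recovered 73 and 97, with 2 false calls. limma on simulated log2(FPKM + 1) over 13199 genes recovered 68 and 88, with 28 false calls, the most of these tools. Changed genes below its FPKM filter counted as not recovered, so its recovery is not comparable with the others. For each tool only 200 genes were changed, whereas 68.4% of all genes were called in the data. How often the tools make false calls when that many genes change was not tested.

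The alternatives were the DESeq2 1.42.0 Wald test, DESeq2 size factors in edgeR, no filter, at least 50 counts on average, limma 3.58.1 on log2(FPKM + 1) with and without a minimum of 1 FPKM in 2 libraries, log2(FPKM + 0.1), a block for the replicate number, omission of single libraries, and a 2-fold threshold. The members, the effector and marker lists and the ligand and receptor pairs were chosen with earlier results of these data known. Members named with values were, in each family, up to 3 with the largest changes in each direction among those called with a mean of at least 1 CPM and the most abundant per length in each group. Other members are given to account for their family. Ezh2 and the 3 largest changes in each direction of the effector list were named by the same rule. Values other than those of these rules, such as the markers shown singly, were chosen after they were seen. Promoters are from the RefSeq table on GRCm38.p6. Python 3.11.15, pandas 2.3.3 and matplotlib 3.10.9 were used.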

Additional observations from a re-analysis of the deposited data

How the results depend on the processing

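Of the 48 called members 34 kept their direction and call under every alternative run at the same threshold in which they were tested. Another 14 lost the call under at least one of these, and 0 changed direction. Sema3d and Sema3e are among the 34, but they fell below the FPKM filter of limma and were not tested there. Sema3d was also left out by the filter of 50 counts on average. The 14 that lost the call were Epha3, Epha4, Epha5, Epha6, Epha7, Epha8, Epha10, Ephb3, Efna2, Plxnb1, Robo1, Slit2, Sema4d and Sema6a. Adding a 2-fold threshold left 9 members higher and 14 lower, so that members with smaller changes, such as Sema7a and Sema6b, are not called under it. With limma on FPKM, 3 semaphorins were higher with the filter at either pseudocount, where Sema3d and Sema3e were not tested, and 5 without the filter. In each of the 3 limma settings 1 Slit or Robo gene was higher. Slit2 was not tested with the filter and not called without it. Without the filter limma called 5 Eph receptors (2 higher, 3 lower) and 2 Slit and Robo genes (1 of them lower). Leaving out single libraries gave 15 to 22 members higher and 24 to 29 lower, 6 to 12 Eph receptors called and 2 to 7 of them higher, the lowest values without Ezh2 cKO replicate 2. In these fits the lone library of a group is assumed to vary like the other group. Some members that were not called changed sign. Under single-library omissions the log2 fold changes ranged from -0.048 to 0.20 for Unc5a, -0.020 to 0.31 for Plxnd1, -0.54 to 0.65 for Epha2, -0.14 to 0.29 for Robo2, -0.23 to 0.21 for Slit3, -0.31 to 0.14 for Efna5, -0.22 to 0.29 for Dcc, -0.090 to 0.18 for Unc5b, -0.081 to 0.27 for Unc5c, -0.10 to 0.37 for Sema3b, -0.23 to 0.085 for Sema3c, -0.051 to 0.43 for Sema3g and -0.20 to 0.021 for Sema4f. Slit3 was at 0.0044 with at least 50 counts on average and at 0.047, 0.067 and 0.047 with limma (pseudocount 1, pseudocount 0.1, no filter), Sema3c at 0.0099, 0.011 and 0.0099 likewise, and Epha2 at 0.0096 with limma without the filter. The cause of these changes was not tested. With the replicate number as a block, 20 members were higher and 29 lower, and Sema3a passed the threshold (adjusted p = 0.0492). Whether same-numbered libraries are pairs is not stated in the labels. The correlation of replicate differences between the groups across 16793 genes was 0.13, and with only 2 such pairs the numbers were not taken as a pairing. Members with under 60 counts in a library, such as Sema3d, Epha2 and Ntn5, are limited by depth.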
